A study of Mus musculus with 2 samples.

Results

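Isg15, the ubiquitin-like modifier ISG15, was examined together with the 4 genes that encode its conjugation and removal enzymes in mouse bone marrow: the activating enzyme Uba7, the conjugating enzyme Ube2l6, the ligase Herc6 and the protease Usp18. These 5 genes were taken by symbol from the 32285 genes counted, and all 5 had counts in both libraries. Single-cell RNA was measured in 1 library from 1 control mouse (WT) and 1 library from 1 double knockout mouse (DKO), from the femoral marrow of 2-month-old mice. The DKO mouse was VavCre:Ddx41 fl/fl and cGAS-/-. The WT mouse was a littermate with floxed Ddx41 alleles, without VavCre and with intact cGAS, so the floxed alleles were shared. VavCre deletes in cells that use the Vav promoter, which are mainly blood cells, with activity also known in endothelial cells and oocytes, whereas cGAS was missing from every cell of the animal. Ddx41 is a DEAD-box RNA helicase and cGAS is a sensor of cytosolic DNA that leads to interferon production. The Cre, the loss of Ddx41 and the loss of cGAS came together in 1 mouse, so their contributions cannot be told apart from each other or from differences between these individual mice.

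ISG15 is a small protein with ubiquitin-like folds whose gene is strongly induced by type I interferon. UBA7 (E1) activates it, UBE2L6 (E2) carries it, and HERC6, the main ISG15 ligase (E3) of the mouse, attaches it to newly made and other proteins, while USP18 removes it and also dampens signalling at the type I interferon receptor. All 5 genes are known interferon targets. Red cell precursors use the wider ubiquitin system heavily as they remodel their proteins and lose their organelles.

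The Isg15 gene (ENSMUSG00000035692) lies at chr4:156199424-156200818 on the minus strand in GRCm38 and has 2 exons. Uba7 (ENSMUSG00000032596) lies at chr9:107975505-107984060, Ube2l6 (ENSMUSG00000027078) at chr2:84798828-84810335, Herc6 (ENSMUSG00000029798) at chr6:57581000-57664632 and Usp18 (ENSMUSG00000030107) at chr6:121245906-121270917, all on the plus strand. The stretches below are promoter sequence from RefSeq on GRCm38.p6, shown because both Isg15 and Ube2l6 had most of their RNA in erythroid cells but differed in how far the libraries stood apart. They are read 5′ to 3′ on the strand of the gene, and capitals mark matches to a longer motif, GAAA, any 2 bases and GAAA again, or to the shorter AANNGAAA, both taken from the interferon-stimulated response element. The Isg15 stretch is the 100 bases before the start at chr4:156200819-156200918, the Ube2l6 stretch the 100 bases before the start at chr2:84798728-84798827, and the Uba7 stretch 30 bases at chr9:107975527-107975556.
Isg15: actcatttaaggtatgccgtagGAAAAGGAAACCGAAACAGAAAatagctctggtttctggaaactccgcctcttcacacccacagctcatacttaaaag
Uba7: caactcagtctagTTTCACTTttggtttcc
Ube2l6: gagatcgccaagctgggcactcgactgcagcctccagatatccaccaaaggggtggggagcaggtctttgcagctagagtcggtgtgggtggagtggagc

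Both strands were searched over 300 bases, from 250 before to 50 after the start. The Isg15 promoter held 3 overlapping matches to the longer motif, which begin 78, 72 and 66 bases before the start, and 3.44% of 32851 RefSeq promoters of that length held at least 1. The shorter AANNGAAA, which lies within the longer motif, matched 4 times in Isg15 and 1 time, on the opposite strand, in Uba7, and 23.92% of promoters held it. Neither motif was found in the windows of Ube2l6 and Herc6. A match describes letters in a window, and binding was not measured. Whether matches relate to the differences between the libraries was not tested.

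The WT library kept 18738 cells with a median of 4874 UMIs (unique molecular identifiers, the counted RNA molecules) and the DKO library 13729 cells with a median of 6904. Hemoglobin genes took 28.5% of WT and 36.3% of DKO UMIs, and 75 barcodes occurred in both libraries. The deletions could be read only in part. Tags near the 3′ end can come from RNA that a deletion leaves, but the deleted exons were not checked against the tags. Ddx41 was at 20.2 CPM (the UMIs of a gene scaled to the total of all genes) in WT and 8.0 CPM in DKO. Cgas was at 13.5 and 7.25 CPM, with 26.1 and 24.8 CPM in granulocyte-monocyte progenitor-like cells. The source of the counts that remained in DKO was not tested. Cells of erythroid-named clusters were split by the share of their UMIs from 8 hemoglobin genes into 5 stages, under 15%, 15 to 40%, 40 to 75%, 75 to 90%, and 90% or more. A stage is a range of this share and not a cell type. All 12 early and 13 late erythroid markers had counts in every stage of both libraries, and the early ones summed to 10872 CPM in WT and 10813 CPM in DKO at under 15%. The stages held 1031, 554, 1213, 3500 and 1377 WT cells and 719, 496, 1210, 1395 and 2578 DKO cells, and 1380 WT and 688 DKO cells of the 75 to 90% stage lay within 2 points of a border. Brackets give 95% intervals of counting error, which do not include differences between mice, and with 1 library a genotype no test between genotypes was possible.

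Isg15 RNA sat mainly in red cell precursors. The erythroid stages held 83.6% of Isg15 UMIs in WT and 90.1% in DKO, with 38.1% and 51.1% of all UMIs. Ube2l6 was similarly placed, with 83.4% and 90.8%. By contrast the stages held 32.9% and 47.3% of the UMIs of Uba7, 42.7% and 52.8% of those of Herc6, and 34.5% and 41.0% of those of Usp18. Over all cells, Isg15 was at 286 CPM in WT and 125 CPM in DKO, a log2 ratio (DKO over WT) of −1.20. Whole-library log2 ratios were −1.12 for Usp18, −0.42 for Herc6, −0.19 for Uba7 and −0.07 for Ube2l6, and these depend on the mix of cells as well as on levels within cells. Fewer cells of a kind and less RNA per cell cannot be told apart in such sums, so the comparisons that follow were made within stages and classes.

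Isg15 was lower in DKO in all 5 erythroid stages, though not in every erythroid cluster. In cells with under 15% hemoglobin it was at 90.3 CPM in WT (582 UMIs) and 15.2 CPM in DKO (114 UMIs), 5.89-fold lower, with a log2 ratio of −2.56 (−2.87 to −2.28). At 15 to 40% it was at 412 CPM in WT and 104 CPM in DKO, 3.96-fold lower, with a log2 ratio of −1.98 (−2.12 to −1.85). The level was highest in WT at 40 to 75%, with 1069 CPM (8681 UMIs) against 388 CPM in DKO (5075 UMIs), 2.75-fold lower (−1.46, −1.51 to −1.41). The distance between the libraries was thus smaller at each of these steps, while the level itself went up in both. At 75 to 90%, WT was at 809 CPM and DKO at 391 CPM, 2.07-fold lower (−1.05, −1.10 to −1.002). At 90% or more, WT was at 259 CPM and DKO at 123 CPM, 2.10-fold lower (−1.07, −1.16 to −0.98). The intervals of the first 4 stages did not overlap, and those of the last 2 did. The mean of the 5 log2 ratios was −1.62 (−1.69 to −1.56), a 3.08-fold lower level. By cluster the order was different. Late erythroid clusters with mean hemoglobin shares of 49.0, 72.8, 83.7, 88.2 and 90.1% had ratios of −0.955, −1.30, −1.49, −1.62 and −2.32. Early erythroid clusters had ratios of −2.32, −1.76 and 0.84 (0.21 to 1.57). The last, with a mean share of 5.6%, held Isg15 at 66.4 CPM in WT (27 UMIs) and 121.5 CPM in DKO (69 UMIs). Why clusters and stages differed was not tested.

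The earliest stage carried the least firm value. Only 408 of its WT cells and 316 of its DKO cells held 2000 UMIs, and in these cells, each thinned to that depth, the log2 ratio was −1.13 (−1.83 to −0.54) in place of −2.56. The same thinning gave −1.55 (−1.88 to −1.24), −1.47, −1.06 and −1.01 in the later stages, so the order of the first 3 stages did not hold in these deeper cells, while DKO was lower in all 5. The stage's median depth was 1359 UMIs in WT and 1595 in DKO. From the neutrophil genes S100a8 and S100a9, free RNA taken up in droplets could supply at most 20.9% of Isg15 UMIs there in WT and 42.8% in DKO, and at most 6.34% in either library in each later stage. These limits use the free RNA profile of the WT library for both. Over 12 alternative settings the log2 ratio lay between −3.02 and −1.13 at under 15% and between −2.11 and −1.55 at 15 to 40%. It lay between −1.57 and −1.33 at 40 to 75%, between −1.27 and −1.03 at 75 to 90%, and between −1.33 and −0.89 at 90% or more.

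Hemoglobin RNA fills most of each late cell, which lowers the CPM of every other gene. With hemoglobin UMIs left out of the total, Isg15 stood at 94.2, 575, 2594, 5753 and 3086 CPM over the stages in WT and at 15.8, 146, 925, 2588 and 1665 CPM in DKO. On this scale the peak lay at 75 to 90% in both libraries, and WT was above DKO in every stage. The median log2 ratio of all genes of at least 20 CPM was 0.10, 0.04, 0.12, 0.31 and −0.23 over the stages, and without hemoglobin it was 0.20 and −0.05 in the last 2. Against these genes, 0.0174% were at or below the Isg15 ratio at under 15% hemoglobin, which is Isg15 alone, and 0.0955%, 0.408%, 3.84% and 14.8% in the later stages. In the cells with the most hemoglobin the Isg15 ratio was thus one of many of that size.

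**Figure D1:**
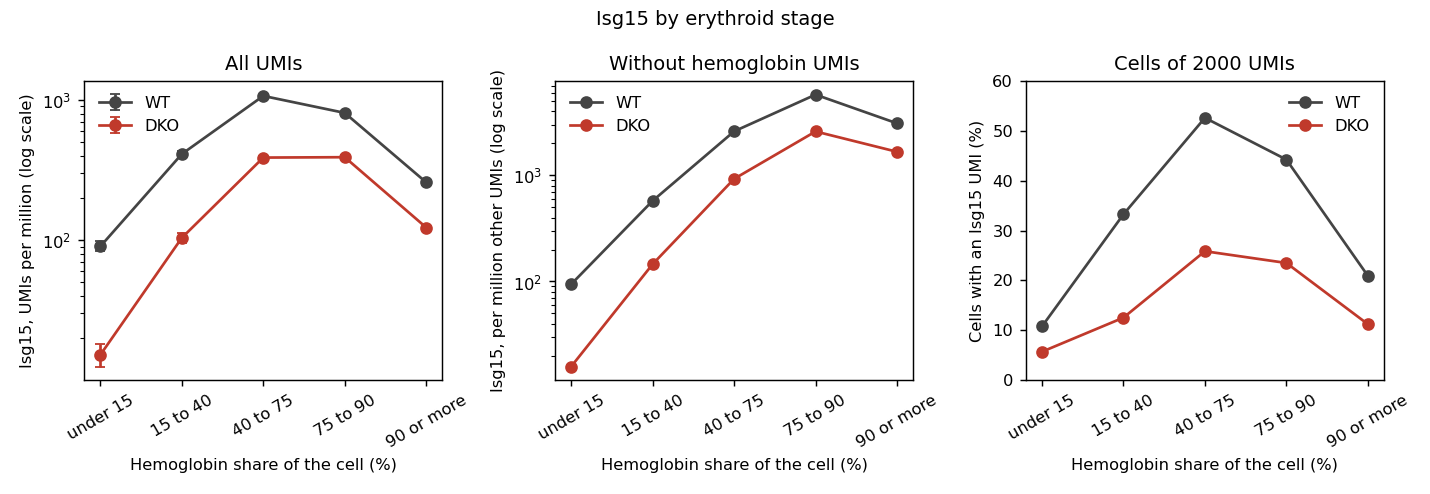
Isg15 over the 5 erythroid stages (x axis, hemoglobin share of UMIs) in WT (grey) and DKO (red): CPM on a log axis with Poisson 95% bars, the same without hemoglobin UMIs, and the percent of cells thinned to 2000 UMIs that held an Isg15 UMI. WT lay above DKO in every stage in all panels, from 90.3 against 15.2 CPM in the first to 259 against 123 CPM in the last.

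Isg15 was the only one of the 5 genes past a 2-fold difference among those of at least 20 CPM in any erythroid stage. It was 1 of 3 such members at under 15% hemoglobin, where 0.889% of all genes tested were lower in DKO by 2-fold and 0.122% higher. At 15 to 40% it was 1 of 4, beside 0.908% of genes lower and 0.215% higher. At 40 to 75% it was 1 of 4, beside 1.63% lower and 1.33% higher. At 75 to 90% it was 1 of 2, beside 4.43% lower and 22.2% higher, and at 90% or more 1 of 2, beside 16.3% lower and 2.15% higher. None of the members tested was higher in DKO by 2-fold.

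Ube2l6, which encodes the E2 that receives ISG15 from UBA7, was at 111, 308, 679, 975 and 917 CPM over the stages in WT and at 87.8, 249, 492, 793 and 723 CPM in DKO. It was higher at each step up to 75 to 90% in both libraries, and DKO was the lower in each stage. The log2 ratios were −0.34, −0.31, −0.46, −0.30 and −0.34, with all 5 intervals under 0 and a mean of −0.35 (−0.39 to −0.31). With cells thinned to 2000 UMIs it was 0.05 (−0.41 to 0.50) at under 15% and 0.12 (−0.13 to 0.37) at 15 to 40%. Its close relative Ube2l3, an E2 of ubiquitin ligases, was at 53.6 CPM in WT and 47.1 CPM in DKO at 40 to 75%, a log2 ratio of −0.19.

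Uba7, the E1 that starts the ISG15 cascade, was at 23.3, 33.9, 34.0, 5.77 and 2.36 CPM in WT and at 16.2, 29.9, 33.7, 8.70 and 1.48 CPM in DKO. The interval of the log2 ratio spanned 0 at 15 to 40%, at 40 to 75% (−0.23 to 0.21) and at 90% or more, the last on 17 and 31 UMIs. Uba7 was lower in DKO at under 15% (−0.52, −0.88 to −0.17) and higher at 75 to 90% (0.59, 0.19 to 0.99; with median-of-ratios scaling 0.37, −0.03 to 0.77, and in thinned cells 0.54, −0.41 to 1.37), and the mean log2 ratio of −0.17 (−0.38 to 0.04) spanned 0. In cells thinned to 2000 UMIs the ratio at under 15% was 0.21 (−0.87 to 1.25). In each late erythroid cluster the Uba7 ratio was under 0, at −0.15, −0.30, −0.16, −0.72 and −1.14 in order of rising hemoglobin share. Only −0.72 and −1.14 had intervals that did not span 0.

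Herc6, which encodes the ligase that passes ISG15 to its targets, was at 54.8, 72.0, 82.6, 12.4 and 3.47 CPM in WT and at 43.2, 53.0, 46.0, 16.4 and 1.29 CPM in DKO. Its level was far lower after the 40 to 75% stage in both libraries. The largest difference on a firm count was at 40 to 75%, from 671 UMIs in WT and 601 in DKO, with a log2 ratio of −0.85 (−1.01 to −0.68). DKO was the higher at 75 to 90%, with 0.40 (0.12 to 0.68), near the median of all genes in that stage (0.31). The ratio lay between 0.04 and 0.50 over 12 alternative settings, and its interval spanned 0 with median-of-ratios scaling (0.18, −0.11 to 0.45), with the mean of per-cell CPM (0.27, −0.05 to 0.59) and in thinned cells (0.04, −0.59 to 0.59). In each late erythroid cluster Herc6 was instead lower in DKO. In order of rising hemoglobin share the ratios were −0.84, −0.62, −0.60, −1.07 and −2.95, of which −0.60 had an interval that spanned 0. The mean of the stage ratios was −0.53 (−0.71 to −0.35). In cells thinned to 2000 UMIs the ratio was 0.33 (−0.19 to 0.84) at under 15% and 0.05 (−0.48 to 0.57) at 15 to 40%.

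Usp18, the ISG15 protease, was at 14.6, 13.7, 22.2, 4.16 and 0.55 CPM in WT and at 5.74, 5.59, 9.26, 1.79 and 0.19 CPM in DKO, the last on 4 UMIs in each. WT was above DKO by 2.51-fold, 2.42-fold, 2.39-fold and 2.24-fold over the first 4 stages, and all 4 intervals lay under 0. The mean log2 ratio was −1.31 (−1.73 to −0.89). In all stages the mean of both libraries was under 20 CPM, so Usp18 was not counted among the members tested for a 2-fold difference. Its counts were small, with 180 UMIs in WT and 121 in DKO in the richest stage, and in thinned cells the ratio was −0.28 (−2.11 to 1.23) at under 15%.

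**Figure D2:**
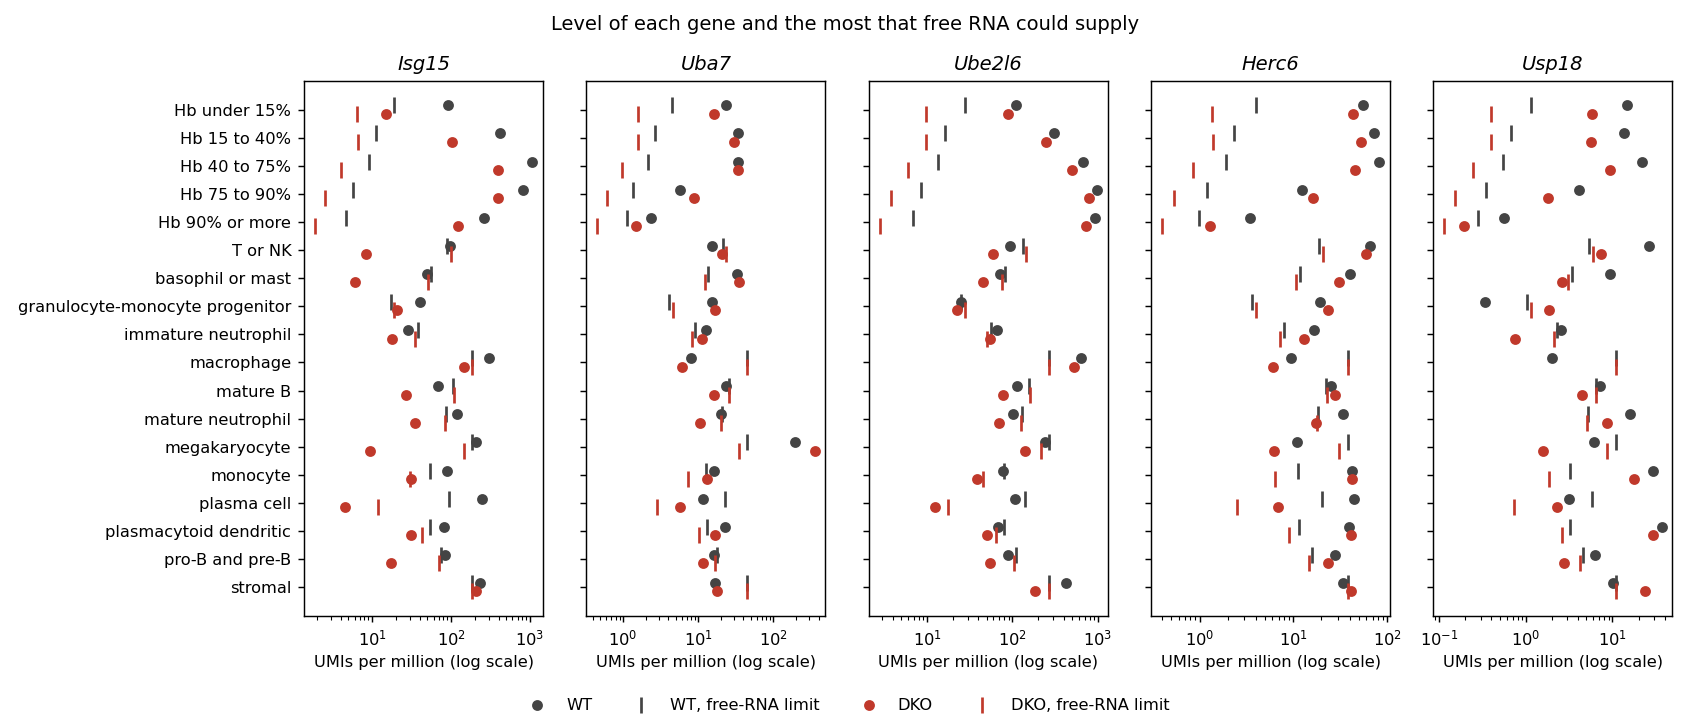
Levels of the 5 genes (1 panel each) in the 5 erythroid stages and 13 other marrow classes: points are CPM on a log axis in WT (grey) and DKO (red), and vertical ticks mark the most that free RNA could supply. Isg15 reached 1069 CPM in WT and 391 CPM in DKO in erythroid stages, Uba7 355 CPM in DKO megakaryocyte-like cells, and Usp18 in DKO macrophage-like cells had 0 UMIs and is not drawn.

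Isg15 RNA was unevenly spread over the cells of a stage. Each cell was thinned to 2000 UMIs and shallower cells were left out. At 40 to 75% hemoglobin, 52.6% of WT cells and 25.9% of DKO cells then held an Isg15 UMI, and at 75 to 90% 44.2% and 23.5%. The variance of the Isg15 count was 8.15 times its mean in WT and 7.82 times in DKO at 40 to 75%, where counting error alone would give a value near 1. For Ube2l6 this ratio lay between 1.03 and 1.87 over all stages and libraries. The 10% of cells with the most Isg15 held 57.8% of its UMIs in WT and 77.5% in DKO at 40 to 75%, against 30.2% and 34.0% for Ube2l6.

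Cells with 5 or more Isg15 UMIs of 2000 made up a smaller share of cells in DKO in each stage from 15% hemoglobin up. At 40 to 75% and 75 to 90% hemoglobin they held most of the Isg15 RNA. At 40 to 75% they were 163 of 1184 WT cells (13.8%, 11.9 to 15.9) and 53 of 1137 DKO cells (4.66%, 3.51 to 6.05), and they held 67.1% of Isg15 UMIs in WT and 57.4% in DKO. At 75 to 90% they were 319 of 3429 WT cells (9.30%) and 54 of 1319 DKO cells (4.09%), with 58.3% and 55.9% of Isg15 UMIs. At 15 to 40% they were 24 of 487 WT cells (4.93%) and 4 of 367 DKO cells (1.09%), with 43.5% and 28.3% of Isg15 UMIs. The stage of 90% or more had 29 of 1333 WT cells (2.18%) and 20 of 2521 DKO cells (0.793%). The under 15% stage showed no clear difference, with 3 of 408 WT cells (0.735%, 0.152 to 2.13) and 2 of 316 DKO cells (0.633%, 0.077 to 2.27). The share of cells with 1 to 4 Isg15 UMIs was also lower at 40 to 75%, with 38.9% in WT and 21.2% in DKO, while cells with none made up 47.4% and 74.1%.

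The 40 to 75% cells rich in Isg15 were also rich in the enzymes of its pathway, in both libraries. These groups of cells were cut from Isg15 itself after its values were seen, so the levels are a description, and Isg15 has no value of its own in them. Usp18 was at 2.67 CPM in WT cells without an Isg15 UMI, 16.3 CPM with 1 to 4 and 104 CPM with 5 or more, and in DKO at 0.593, 14.5 and 104 CPM. Herc6 was at 38.3, 70.7 and 264 CPM in WT and at 32.0, 51.9 and 255 CPM in DKO. In the Isg15-rich cells, 163 in WT and 53 in DKO, the Usp18 and Herc6 values lay close together, while Uba7 differed more. The DKO values rest on few cells, and for Usp18 on few UMIs. Whether the levels were equal was not tested. Uba7 was at 21.4, 53.3 and 92.0 CPM in WT and at 24.9, 51.9 and 160 CPM in DKO, and Ube2l6 at 587, 709 and 1089 CPM and at 482, 581 and 915 CPM.

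The interferon gene Rsad2 followed the same order over these cells. Rsad2, the antiviral enzyme viperin, was at 433, 705 and 2022 CPM in WT and at 214, 515 and 2019 CPM in DKO. Among cells without an Isg15 UMI, Rsad2 was thus lower in DKO, while among Isg15-rich cells its levels were nearly equal. Ubb, a polyubiquitin gene, was nearly level over the groups, with 2354, 2544 and 2733 CPM in WT and 933, 975 and 1019 CPM in DKO. Alas2, the first enzyme of heme synthesis in red cells, was at 1363, 1470 and 1589 CPM in WT and at 1363, 1295 and 1368 CPM in DKO. The neutrophil gene S100a8, which reads neutrophil RNA from droplets or doublets, was at 379, 420 and 298 CPM in WT and at 177, 112 and 142 CPM in DKO. It cannot show doublets with other kinds of cells, and whether these are among the Isg15-rich cells was not tested. The median hemoglobin share went from 59.1% to 64.3% in WT and from 58.5% to 64.1% in DKO over the groups.

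**Figure D3:**
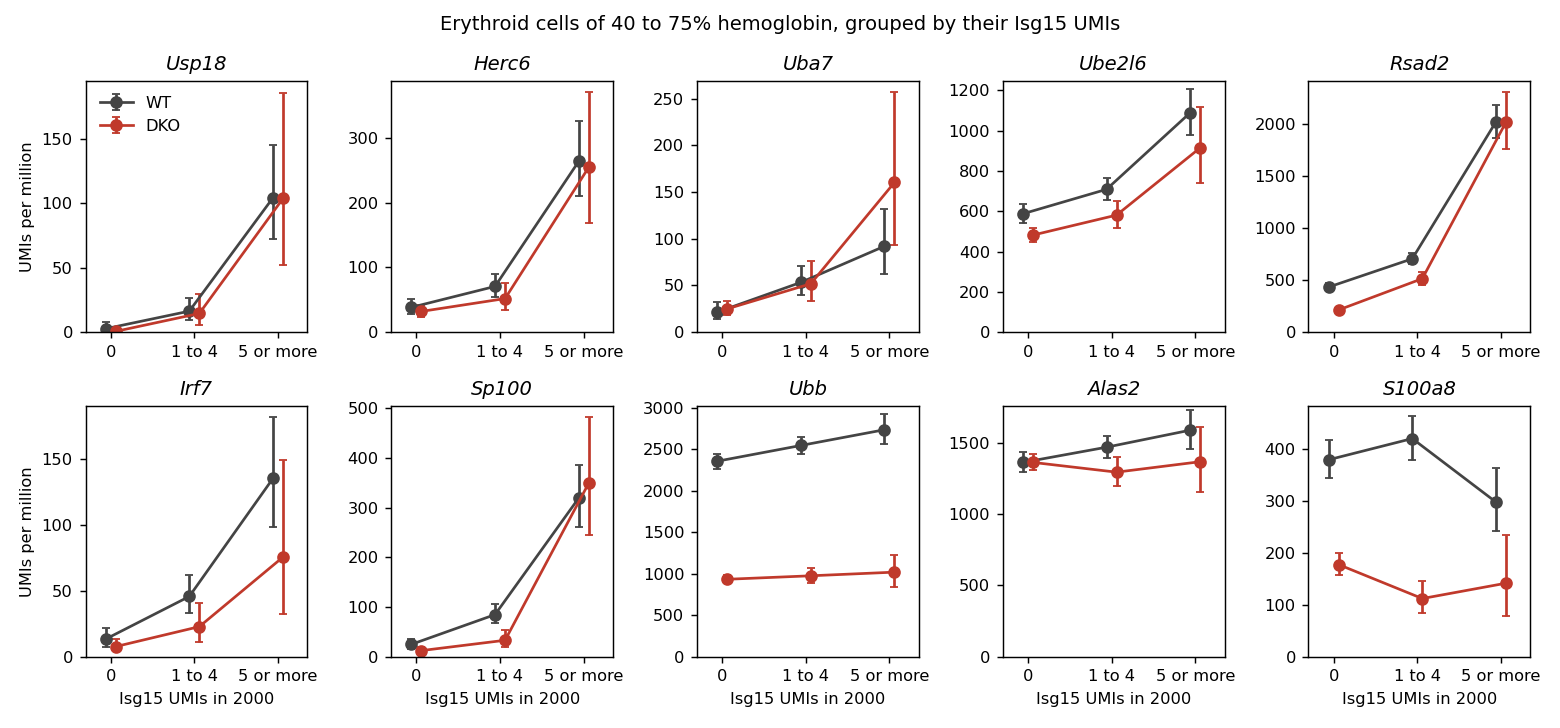
Levels of the other 4 members and of 6 further genes in cells with 40 to 75% hemoglobin, each thinned to 2000 UMIs and grouped by its Isg15 UMIs (0, 1 to 4, 5 or more; x axis), as CPM with Poisson 95% bars in WT (grey) and DKO (red). Usp18 reached 104 CPM in the Isg15-rich cells of both libraries, while Ubb stayed between 2354 and 2733 CPM in WT and between 933 and 1019 CPM in DKO.

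Interferon-stimulated genes other than the 5 members were read where their level allowed. Of 60 such genes in the list, 18, 11, 13, 4 and 2 reached 20 CPM over the stages, of which 3, 5, 5, 1 and 1 were lower in DKO by 2-fold and 0 higher, beside 0.889%, 0.908%, 1.63%, 4.43% and 16.3% of all genes lower. Their median log2 ratios were −0.45, −0.90, −0.81, −0.63 and −0.91, beside the medians of all genes given above. Ifi27, an interferon-induced mitochondrial and nuclear-envelope protein, had ratios of −1.63, −1.77, −2.02, −1.65 and −1.76. Rsad2 had ratios of −1.48, −1.48, −1.06, 0.04 and −0.07, with 678 CPM in WT and 326 CPM in DKO at 40 to 75% but 523 and 539 CPM at 75 to 90%, so from that stage on Rsad2 did not share the lower level that Isg15 had. Irf7, a regulator of interferon genes, was at 44.3 CPM in WT and 13.3 CPM in DKO at 40 to 75%. Of the 17 genes of interferon receptors and signalling, 0 of 8, 1 of 6, 2 of 7 and 0 of 2 measured members were lower by 2-fold over the first 4 stages.

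Isg15 belongs to the ubiquitin-like modifiers, and other members of that family were also lower in DKO. Of its 18 genes, 2 of 16, 2 of 16, 3 of 14, 3 of 9 and 3 of 8 tested were lower by 2-fold over the stages, Isg15 among them, and 0 were higher, where 0.889%, 0.908%, 1.63%, 4.43% and 16.3% of all genes were lower. Ubb had log2 ratios of −0.82, −0.87, −1.36, −1.25 and −1.04. Gabarapl2, an autophagy modifier, had ratios of −0.50, −0.67, −0.74, −0.50 and −0.48. By stage, though not by cluster, the Isg15 ratio from all cells was closer to 0 in late cells. The Ubb ratio was farther from 0 in the last 3 stages than in the first 2. Reads of ubiquitin genes can be shared with near-identical copies, so the values of Ubb are uncertain.

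The enzyme families of the members showed few 2-fold differences, but lists this small would hold few at the shares of all genes. Over the first 3 stages 0.889%, 0.908% and 1.63% of all genes tested were lower and 0.122%, 0.215% and 1.33% higher. At 75 to 90% these shares were 4.43% and 22.2%, and at 90% or more 16.3% and 2.15%. The counts of the first 3 stages thus do not set the families apart from other genes. Among the 9 E1 genes, 0 of 7, 0 of 6 and 0 of 3 tested were lower or higher over the first 3 stages. Among the 39 E2 genes 1 of 29 was lower at under 15%, Ube2h, a conjugating enzyme abundant in red cell precursors, with 281 CPM in WT and 132 CPM in DKO, and 0 in the later stages. Of the 5 HERC ligases 4 were measured in each of the first 3 stages with 0 past 2-fold, and Herc1, a giant relative of Herc6, was higher at 75 to 90%, with 51.3 CPM in WT and 137 CPM in DKO (1.42). Of the 58 ubiquitin-specific proteases, the family of Usp18, 27, 24, 18, 5 and 2 reached 20 CPM over the stages, which Usp18 did not, and 0 of these were lower by 2-fold, while Usp32 and Usp7 were higher at 75 to 90%, a stage in which 22.2% of all genes tested were.

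**Figure D4:**
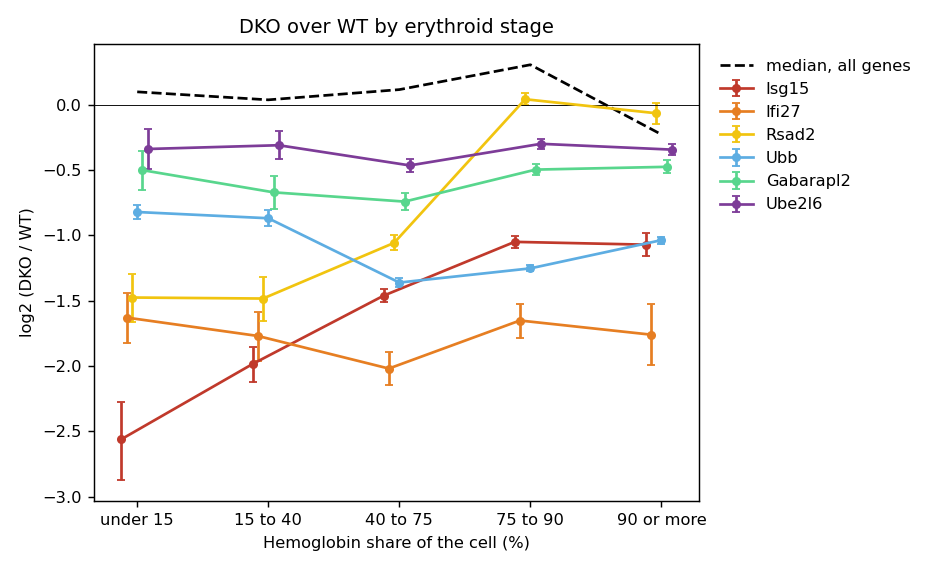
Log2 ratios of DKO over WT (y axis) over the 5 erythroid stages (x axis) for Isg15, Ifi27, Rsad2, Ubb, Gabarapl2 and Ube2l6, with 95% counting intervals and the median of all genes as a dashed line. Isg15 went from −2.56 to −1.07 over the stages and Rsad2 from −1.48 to −0.07, while Ubb lay between −1.36 and −0.82.

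Outside the red cell lineage, Isg15 was lower in DKO in 12 of 13 marrow classes by the counting interval, and in none higher. Classes are named from markers as X-like. In T or NK-like cells it was at 98.2 CPM in WT (292 UMIs) and 8.41 CPM in DKO (16 UMIs), a log2 ratio of −3.46. In megakaryocyte-like cells it was at 209 and 9.46 CPM (308 and 6 UMIs, −4.25), and in plasma cell-like cells at 245 and 4.53 CPM (231 and 4 UMIs, −5.44, −7.64 to −4.38), where hemoglobin took 7.55% of WT and 0.947% of DKO UMIs. In myeloid classes it was at 28.2 and 17.8 CPM in immature neutrophil-like cells (−0.66), 40.01 and 20.5 CPM in granulocyte-monocyte progenitor-like cells (−0.95), 87.9 and 31.6 CPM in monocyte-like cells (−1.47) and 121 and 34.6 CPM in mature neutrophil-like cells (−1.80). Lymphoid ratios were −1.33 in mature B-like and −2.26 in pro-B and pre-B-like cells, with −1.34 in plasmacytoid dendritic-like, −2.96 in basophil or mast-like and −1.06 in macrophage-like cells. The DKO values of the first 2 of these classes rested on few cells, with 214 UMIs in 34 immature neutrophil-like cells, 83 of them in 1 cell, and 67 UMIs in 9 progenitor-like cells, 38 of them in 1 cell. The 2 immature neutrophil-like clusters had ratios of −0.07 (−0.35 to 0.22) and −2.59 (−3.36 to −1.99). Stromal-like cells were the class whose interval spanned 0, at 236 CPM in WT and 204 CPM in DKO (−0.20, −0.55 to 0.12), with a ratio of −0.51 when scaled without hemoglobin, and their 2 clusters had ratios of 0.38 (−0.10 to 0.86) and −0.54 (−1.15 to −0.04).

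Free RNA of the WT library held Isg15, which bears on these values. WT barcodes of at most 100 UMIs held 183 CPM of Isg15, 1.26 Isg15 UMIs for each 1000 hemoglobin UMIs, where the WT erythroid stages together held 0.969 and the DKO stages 0.333. If all hemoglobin UMIs of a class were free RNA with the WT profile, it could supply between 39.0% and 100% of the Isg15 UMIs of a class in WT and between 89.8% and 100% in DKO. The DKO counts cover called cells only, so free RNA of that library could not be measured. The WT profile stood in for it, although the DKO erythroid cells held less Isg15 for their hemoglobin. In plasma cell-like cells, 10 of 11 listed terminal erythroid genes were also lower in DKO by 2-fold (median log2 ratio −2.91), beside 15.3% of all genes. That class was not among the 12 read in cells with at most 5% hemoglobin UMIs, a limit chosen after the values were seen. Under this limit, 11 of 12 classes still had Isg15 lower in DKO. Mature neutrophil-like cells were then at 81.4 and 23.5 CPM (557 and 206 UMIs, −1.79), monocyte-like cells at 63.8 and 24.1 CPM (−1.39), T or NK-like cells at 57.3 and 4.29 CPM (143 and 7 UMIs, −3.56), immature neutrophil-like cells at 10.4 and 1.63 CPM (120 and 18 UMIs, −2.61), granulocyte-monocyte progenitor-like cells at 6.76 and 1.32 CPM (37 and 4 UMIs, −2.08), and stromal-like cells at 30.03 and 27.4 CPM (19 and 8 UMIs, −0.04). The part of free RNA in what remained was not tested.

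Among the 13 classes, the number of members of at least 20 CPM that were lower in DKO by 2-fold was small, beside a background that also differed. It was 1 of 3 in T or NK-like cells (1.16% of all genes), 1 of 4 in basophil or mast-like cells (0.446%), 0 of 3 in granulocyte-monocyte progenitor-like cells (0.409%) and 0 of 2 in immature neutrophil-like cells (0.18%). It was 1 of 2 in macrophage-like (4.16%), 1 of 3 in mature B-like (0.469%), 1 of 3 in mature neutrophil-like (0.914%), and 1 of 3 in megakaryocyte-like cells (5.08%). In each of these classes with a member called, the member was Isg15. Monocyte-like cells had 2 of 4 (0.617%), Isg15 and Ube2l6, and plasma cell-like cells had 3 of 3, beside 15.3% of all genes. Plasmacytoid dendritic-like cells had 1 of 4 (0.852%) and pro-B and pre-B-like cells 1 of 3 (0.337%), again Isg15, while in stromal-like cells the 1 of 3 (1.9%) was Ube2l6, at 419 CPM in WT and 185 CPM in DKO. Hemoglobin took 36.9% of WT and 21.5% of DKO UMIs in stromal-like cells. In those with at most 5% hemoglobin, Ube2l6 was at 22.1 and 24.0 CPM (14 and 7 UMIs, 0.21, −1.43 to 1.52).

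The enzyme genes had patterns of their own outside the red cell lineage. Ube2l6 was lower in DKO by its interval in 12 of 13 classes, and like Isg15 it is abundant in free RNA, at 270 CPM in the low WT barcodes. In cells with at most 5% hemoglobin, Ube2l6 was lower by its interval in fewer classes. These were basophil or mast-like, macrophage-like, mature B-like, mature neutrophil-like, monocyte-like, and pro-B and pre-B-like cells. It was not so in T or NK-like, granulocyte-monocyte progenitor-like, immature neutrophil-like, megakaryocyte-like, plasmacytoid dendritic-like and stromal-like cells. Usp18 was lower by its interval in 6 classes and higher in none. It was highest in plasmacytoid dendritic-like cells, at 36.9 CPM in WT and 29.4 CPM in DKO (−0.31, −0.89 to 0.21), and in monocyte-like cells, at 29.1 and 17.9 CPM (−0.69, −1.12 to −0.29). In T or NK-like cells Usp18 was at 26.6 CPM in WT and 7.36 CPM in DKO, on 79 and 14 UMIs (−1.77, −2.79 to −1.02). Herc6 was highest in T or NK-like cells, at 65.9 and 59.9 CPM (−0.13, −0.48 to 0.20), and was lower by its interval in 3 classes. In monocyte-like cells Herc6 stood at 41.8 CPM in WT and 42.0 CPM in DKO, next to the lower Isg15 and Usp18 there.

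Mature neutrophil-like cells were the class in which all 5 genes were lower in DKO by their intervals. In cells with at most 5% hemoglobin the log2 ratios were −1.79 for Isg15, −0.96 for Uba7, −0.95 for Ube2l6, −1.03 for Herc6 and −0.83 for Usp18. Uba7 in those cells was at 21.8 CPM in WT (149 UMIs) and 11.2 CPM in DKO (98 UMIs). In megakaryocyte-like cells, which held the highest Uba7 level of all stages and classes, Uba7 was instead higher in DKO, at 193 CPM in WT (285 UMIs) and 355 CPM in DKO (225 UMIs), a log2 ratio of 0.88 (0.62 to 1.13). It was 0.79 (0.52 to 1.05) in cells with at most 5% hemoglobin, at 237 and 409 CPM. The DKO class held 106 cells of median 862 UMIs and the WT class 382 cells of median 1341 UMIs, and hemoglobin took 18.5% of WT and 11.5% of DKO UMIs there. The neutrophil gene S100a8 was at 5114 CPM in WT and 135.5 CPM in DKO, so RNA of other cells also differed. The 3 genes closest to Uba7 over stages and classes, Mob1b, Dok1 and Gp9, likewise had their highest level in DKO megakaryocyte-like cells. Whether the Uba7 difference goes beyond that of such genes was not tested.

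**Figure D5:**
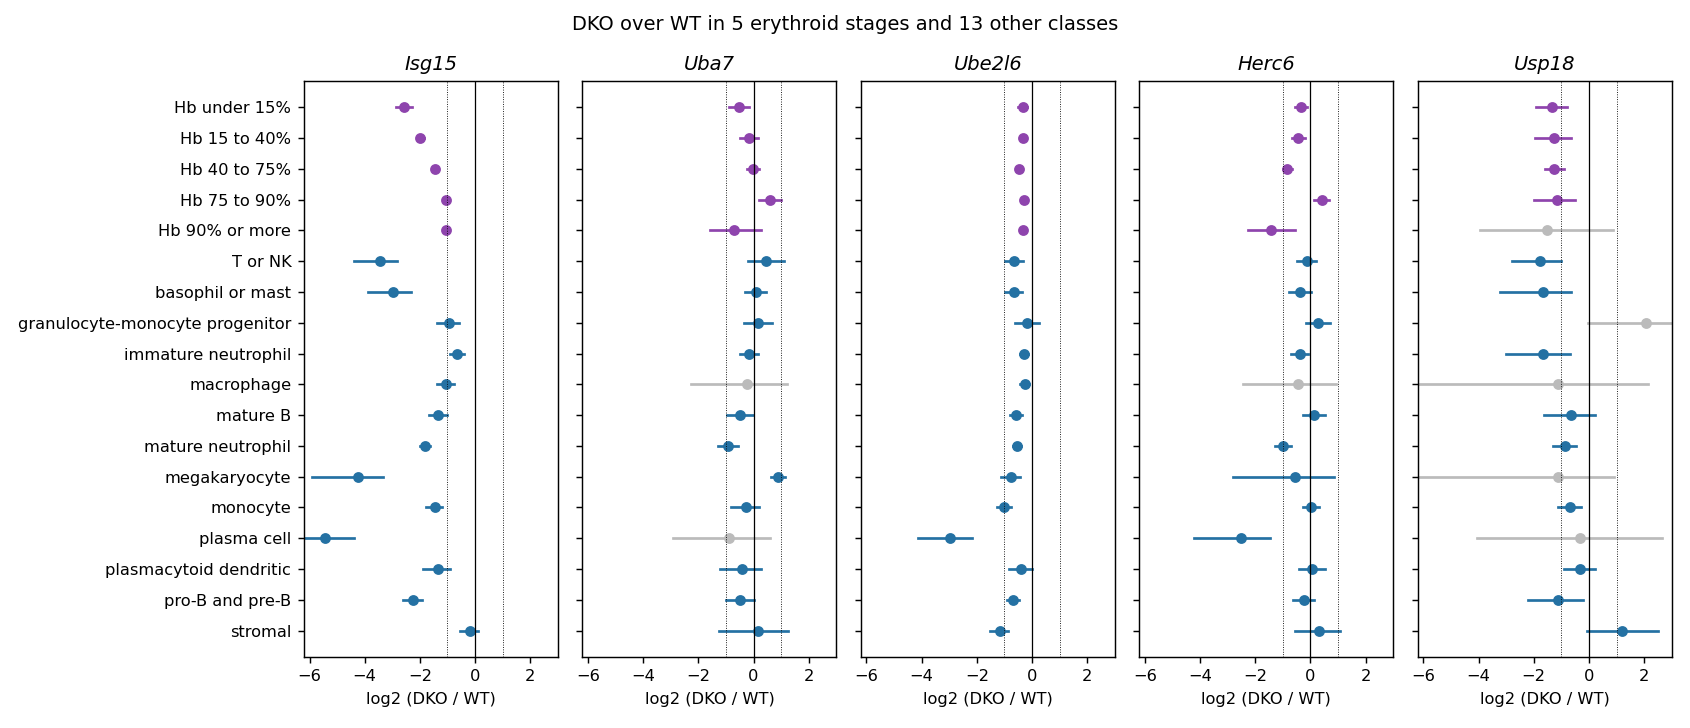
Log2 ratios of DKO over WT (x axis) of the 5 genes in erythroid stages (purple) and other classes (blue), with exact 95% counting intervals cut at the plot edge, grey where both libraries together held under 20 UMIs, and dotted lines at a 2-fold difference. Isg15 lay under 0 by its interval in 5 of 5 stages and 12 of 13 classes, whereas Uba7 was above 0 in megakaryocyte-like cells (0.88).

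Over 36 points, the 18 stages and classes of each library, the 5 genes formed no single pattern. The Pearson correlation of log2(CPM + 5) was 0.83 between Isg15 and Ube2l6 and 0.73 between Herc6 and Usp18, but −0.11 between Isg15 and Uba7. Among 11035 genes, the closest to Isg15 were Rsad2 (0.93), Yipf4 (0.89) and the globin-like gene Hbq1b (0.83). Ube2l6 was closest to Hbb-bt (0.99), Alas2 (0.98) and Hbb-bs (0.98), which are genes of hemoglobin and heme. Uba7 was closest to Mob1b (0.90), Dok1 (0.90) and the platelet receptor gene Gp9 (0.90), Herc6 to Cabin1 (0.88), Klhdc2 (0.87) and Pkn2 (0.86), and Usp18 to the interferon-response genes Irf9 (0.79) and Parp9 (0.77) and to Stn1 (0.77). The points of a library share its depth and its free RNA, so these values are descriptions.

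Read assignment limits some of the counts. Of the 31-base words in the last 400 bases of the transcripts, 12.7% of those of Isg15, 20.64% of those of Ube2l6 and 35.95% of those of Uba7 also occurred in another annotated gene, and none of those of Herc6 and Usp18 did. Usp18 overlaps the antisense transcript Gm44148 on the opposite strand.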

How the data were processed

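Bone marrow of 1 WT and 1 DKO mouse was profiled with 10x Chromium 3′ chemistry. Cell Ranger 7.1.0 (file header) and mm10 were used by the authors, who deposited raw UMI counts per gene and barcode. The WT matrix lists 1518290 barcodes, empty droplets included, and the DKO matrix 14142 called cells. Total counts were 135693452 and 117725934.

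WT barcodes counted as cells above 1 order of magnitude under the 99th percentile of the 3000 deepest barcodes, or, from 500 UMIs up, where a multinomial test set them apart from barcodes of at most 100 UMIs (10000 simulations, FDR 0.01). Cells over 20% mitochondrial UMIs (174 WT, 215 DKO) and over the DKO Scrublet threshold of 0.228 (337 WT, 198 DKO; 1.77% and 1.42%) were left out. Clustering (scanpy 1.11.5, leidenalg 0.10.2) used 2000 variable genes, 30 components, 15 neighbors and Leiden resolution 1.0, without the members, the interferon-stimulated list, Ddx41 and Cgas. Clusters were named from marker lists when 3 markers were raised 1.5-fold. The 13 named classes outside the erythroid lineage had at least 50 cells in each library, and clusters 14 and 28 stayed unnamed and are not described.

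Counts were summed per class or stage and scaled to CPM. Ratios are log2 of DKO over WT with 1 count added, with exact conditional binomial 95% intervals. Levels have Poisson and shares Clopper-Pearson intervals (scipy 1.17.1). These cover counting error only. Genes of at least 20 CPM, as the mean of both libraries, were counted past a 2-fold difference. Scripts were tested on simulated data. Positions are from GENCODE M21 (GRCm38), promoters from RefSeq, which matched 4 of the 5 members, with Usp18 named only.

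Besides the 5 members, the genes named are Ddx41 and Cgas, the 3 genes most like each member, and the highest or most extreme members of gene lists. Irf7 and Alas2 were added after values were seen, and some further genes are not reported here. The members and lists were chosen with earlier results of these data known. Of the other settings tried, 14 were listed at the outset and 1 was added after the data were seen.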

Additional observations from a re-analysis of the deposited data

Results flagged for a closer look

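For 4 values the libraries differed in opposite directions in different cells, with counting intervals on opposite sides of 0. Whether these differences between classes are larger than those between mice was not tested, since each genotype had 1 library. Uba7 had a log2 ratio (DKO over WT) of −0.92 in mature neutrophil-like cells and of 0.88 in megakaryocyte-like cells. In the latter the neutrophil gene S100a8 was at 5114 CPM in WT and 135.5 CPM in DKO. The 3 genes most like Uba7 also had their highest level in the DKO megakaryocyte-like cells. Herc6 had a ratio of −2.52 in plasma cell-like cells, on 42 UMIs in WT and 6 in DKO. There 10 of 11 listed terminal erythroid genes and 15.3% of all genes were also lower by 2-fold. In erythroid cells with 75 to 90% hemoglobin the Herc6 ratio was 0.40. The last value lies near the median of all genes there (0.31), and its interval spanned 0 with median-of-ratios scaling (0.18, −0.11 to 0.45), with the mean of per-cell CPM (0.27) and in thinned cells (0.04). By cluster, Herc6 had a ratio under 0 in each late erythroid cluster.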

How the results depend on the processing

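No paired analysis was possible because each genotype had 1 library. The mean Isg15 log2 ratio over the erythroid stages of −1.62 stayed under 0 in 12 of 12 alternatives. It was −1.79 with barcodes above the order-of-magnitude threshold only, −1.73 with free RNA subtracted, −1.54 with the mean of per-cell CPM, −1.24 in cells thinned to 2000 UMIs, −1.54 with any cell staged by its hemoglobin share, and between −1.69 and −1.61 in the other 7. Thinning leaves out shallow cells and gives each remaining cell equal weight, and the cause of the shifts was not tested. The mean of Usp18 lay between −1.37 and −1.06, that of Herc6 between −0.63 and −0.40, and that of Uba7 between −0.29 and 0.11. That of Ube2l6 lay between −0.41 and −0.16. Between 10 and 14 non-erythroid classes had Isg15 lower in DKO, with 10 of 13 after subtraction of free RNA, 10 of 13 after thinning, 13 of 13 when scaled without hemoglobin, by median-of-ratios or by the mean of per-cell CPM, and 11 of 12 in the added setting of cells with at most 5% hemoglobin UMIs. Members past 2-fold in erythroid stages were 5 of 15 counted over all stages, 11 of 25 with a minimum of 1 UMI and 4 of 8 with 100 CPM, beside a median over stages of 1.63%, 21.03% and 1.95% of all genes past 2-fold lower. Depth limits Usp18 at late stages and all genes in small classes.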
